A study of Mus musculus with 9 samples.

Results

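The genes described here encode the proteins of the cytosolic ribosome, measured in the hippocampus of young mice and of adult mice with and without a decline in cognitive function. They were chosen by their symbols alone: Rpl or Rps followed by a number (with a final letter or a paralog suffix), Rplp0 to Rplp2, or Rpsa, leaving out the S6 kinases and pseudogenes. Of 22206 probe sets on the array, 19572 were named with 1 gene symbol, and 63 of these genes met the rule, each with 1 probe set. They were 37 genes of the large subunit, 2 of its stalk (Rplp0 and Rplp1) and 24 of the small subunit, and 8 of the 63 carry the symbol of a paralog (Rpl3l, Rpl7l1, Rpl10l, Rpl22l1, Rpl32l, Rpl39l, Rps4l and Rps27l).

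The ribosome is built from ribosomal RNA and one copy of most ribosomal proteins. The small subunit reads the mRNA, and the large subunit joins the amino acids and lets the chain out through a tunnel. Their mRNAs begin with a run of pyrimidines, the 5′ terminal oligopyrimidine (TOP) tract, through which mTOR and the RNA-binding protein Larp1 set their translation together. In neurons they are found in dendrites and axons as well as in the cell body, and protein synthesis is needed for lasting memory.

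Male mice of strain C57BL6 (C57BL/6NCrSlc by the study's methods) gave 1 hippocampus array each, 3 mice in each of 3 groups. The p3 group was adult with cognitive function decline (47 weeks; mice 2, 6 and 11, whose labels end in D, read here as decline), the p2 group adult with normal cognition (47 weeks; mice 3, 8 and 18), and the p1 group young with normal cognition (11 weeks; mice 7, 19 and 20). The ages are those of the study's methods. In the study the adult mice were ranked on their scores in the Y-maze and the open field. The p3 group held the 3 lowest in rank and, by the study's discussion, the p2 group the 3 highest. No group carried an allele or an agent, and a p3 or p2 mouse is defined by its rank among untreated adults of 1 strain.

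Values are log2 normalised intensities of a Clariom S array, so that a difference of 1 is a doubling. The p2 values of 15915 probe sets (71.7%) lie on a straight line and were dropped, which left 6291 probe sets and 17 of the 63 ribosomal protein genes with a measured p2. These 17 lie on chromosomes 1 to 5. The arrays correlated at 0.990 to 0.995 over the 6291 probe sets. Snap25, a presynaptic protein of neurons, was at 18.14 to 18.48, Neurod6, of pyramidal neurons, at 14.69 to 15.41, and Prox1, of dentate granule neurons, at 11.78 to 13.19. Markers of bordering tissue set 2 mice apart. Of 12 measured choroid plexus markers, the median was 3.53 above the other p3 and p1 mice in p3 mouse 11 and 3.90 in p1 mouse 19, against -2.01 to -1.41 in the rest. Their summed level was 10.68 to 19.28 in p3 and 13.09 to 19.17 in p1. Of 11 thalamus markers, the median stood 2.69 above in mouse 11 of p3, against -0.83 to -0.29 in the remaining mice of p3 and p1, with summed levels of 12.82 to 16.38 in p3 and 12.71 to 14.45 in p1. None of these markers was listed at 0.

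Most of these genes were among the brightest probe sets of the array. Their means over the p3 and p1 mice ran from 3.09 to 17.39, and 53 of 63 were at 10 or more, where 5311 of all 22206 probe sets lay. The highest were Rps23, a small subunit protein next to the decoding site (17.39), Rpl21 (16.80), Rpl4, which lines the exit tunnel (16.20), Rps6, the target of the S6 kinases (16.04), and Rps15 (15.85). The lowest were Rpl3l (3.09), a paralog known from striated muscle, Rpl39l (4.10) and Rpl10l (5.58), paralogs known from testis, Rps27l (7.24), a p53 target, and Rpl27 (7.40). A level depends on the probes of its own set, so these levels do not rank the mRNAs.

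The genes also varied little between mice of a group. The median within-group SD over p3 and p1 was 0.127 for the 63 genes, 0.158 for all probe sets at 10 or more, and 0.228 for all probe sets. Over the 6 mice of p3 and p1 together, the SD was 0.03 for Rps23, 0.04 for Rpl38 and 0.05 for Rpl32 (the last 2 named after their values were seen). It was largest for Rps27l (0.33), Rpl36 (0.29), Rps9 (0.28), Rps25 (0.26) and Rps19 (0.25), none of which separated the groups. Rps25, which some viral RNAs need to recruit the small subunit, was at 13.30, 12.76 and 12.79 in p3 mice 2, 6 and 11, against 12.57, 13.10 and 12.85 in p1 mice 7, 19 and 20. Rps19, mutated in human Diamond-Blackfan anaemia, was at 9.63, 9.92 and 9.38 in the p3 mice, against 9.64, 9.31 and 9.86 in the p1 mice. Rpl36 was at 7.55, 7.70 and 7.16 in the p3 mice, against 7.31, 7.72 and 7.96 in the p1 mice. In each of these 3 genes the ranges of both groups overlapped over most of their length.

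**Figure D1:**
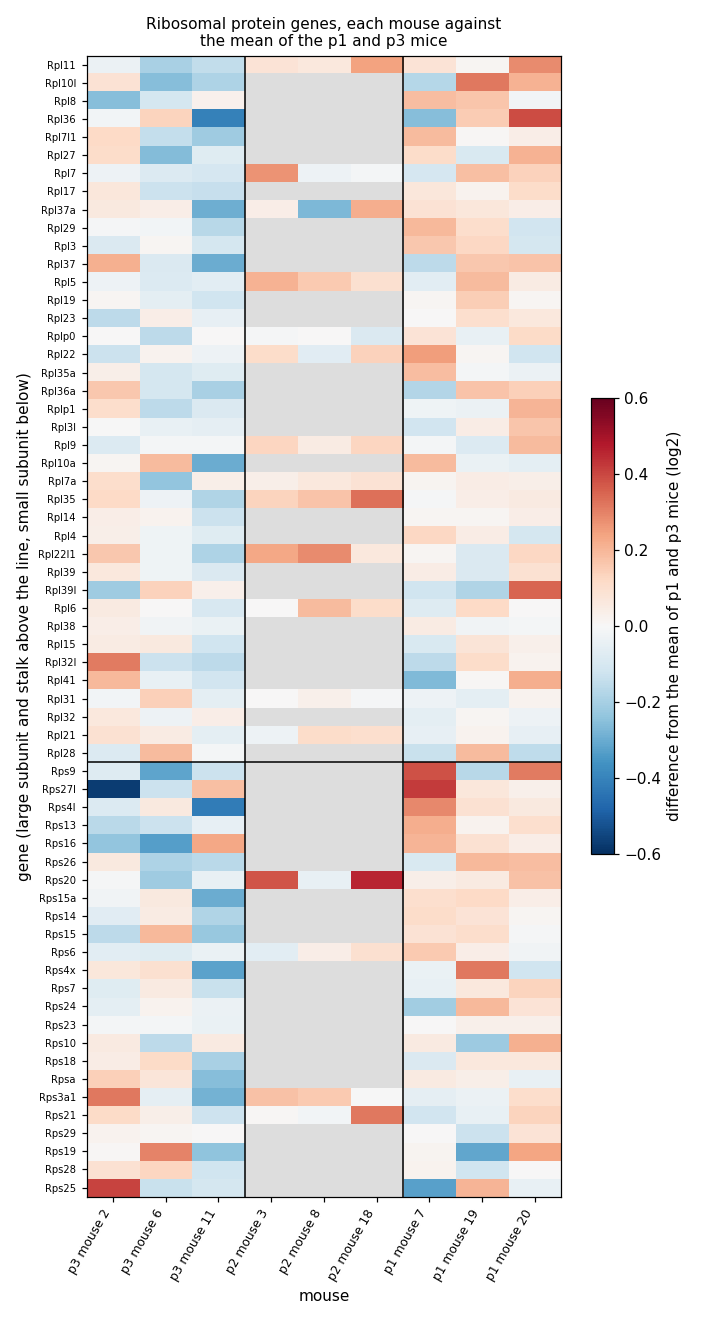
Colours give each mouse's log2 value minus the mean of the p3 and p1 mice for 63 ribosomal protein genes (rows; large subunit and stalk above the line, small subunit below) in p3, p2 and p1 mice (columns), with grey for p2 values that were dropped. The column of p3 mouse 11 is the bluest, with 54 of 63 genes below the mean.

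The first comparison, p3 against p1, set adult mice with decline against young mice and could be made for all 63 genes. The study called a gene at 1.5-fold or more in size and an unadjusted p under 0.05, a threshold that 1.70% of all 22206 probe sets and no ribosomal protein gene passed. In limma, 0 of 63 were at an unadjusted p under 0.05, against 5.71% of all probe sets, and 0 had an adjusted p under 0.05, as did 0 of all 22206. Of the probe sets at 10 or more, 0.414% passed the threshold and 2.58% were at an unadjusted p under 0.05. The one-way model without moderation put 3 of the 63 below an unadjusted p of 0.05 (Rpl11, Rps13 and Rps23), and a t-test of the 2 groups put 2. That model is the array test of the study's methods where p2 was measured, as for Rpl11. For Rps13 and Rps23, without p2 values, it is the same as the t-test. The smallest adjusted p of the 63 in limma was 0.873 (Rpl11). Since each array holds bulk RNA of a hippocampus, fewer cells of a type and less RNA per cell cannot be told apart in any value given here.

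The differences were small and mostly of 1 sign. The mean was lower in p3 for 52 of 63 genes (82.5%), against 49.0% of all probe sets and 53.5% of those at 10 or more. The median difference, p3 minus p1, was -0.09 for the 63 genes, 0.003 for all probe sets and -0.02 for those at 10 or more. It was -0.09 over the 39 genes of the large subunit and stalk, of which 33 were lower, and -0.10 over the 24 of the small subunit, of which 19 were lower. Without the 8 paralog symbols, it was -0.09 over 55 genes, of which 45 were lower. Genes of 1 array are not independent of each other, so these counts carry no test.

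Sizes were narrow as well. The 63 differences lay between -0.35 and 0.11, and 8 of 63 (12.7%) were over 0.2 in size, against 35.9% of all probe sets. Of the 53 ribosomal protein genes at 10 or more, 5 were over 0.2 (9.43%), against 21.7% of all probe sets at that level. For 56 of the 63 genes the whole 95% confidence interval of limma lay within a fold of 1.5 in either direction. This held for 11083 of all 22206 probe sets and for 4102 of the 5311 at 10 or more. The exceptions among the 63 were Rps9, Rps27l, Rps4l, Rpl10l, Rps16 and Rpl36 on the lower side and Rps25 on the higher side.

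**Figure D2:**
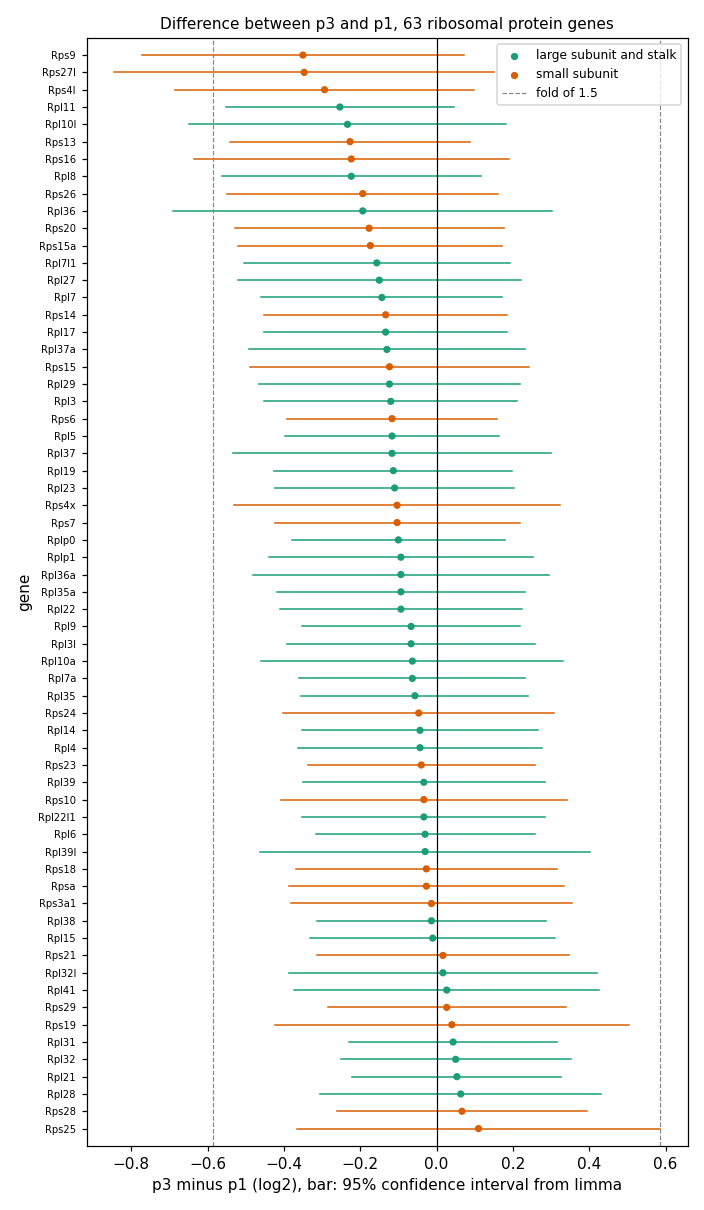
Points give the difference p3 minus p1 (log2, x axis) for each of 63 ribosomal protein genes (y axis), coloured by subunit, with bars for the 95% confidence interval from limma and dashed lines at a fold of 1.5. Of the points, 52 lie left of 0, and the interval of every gene includes 0.

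**Figure D3:**
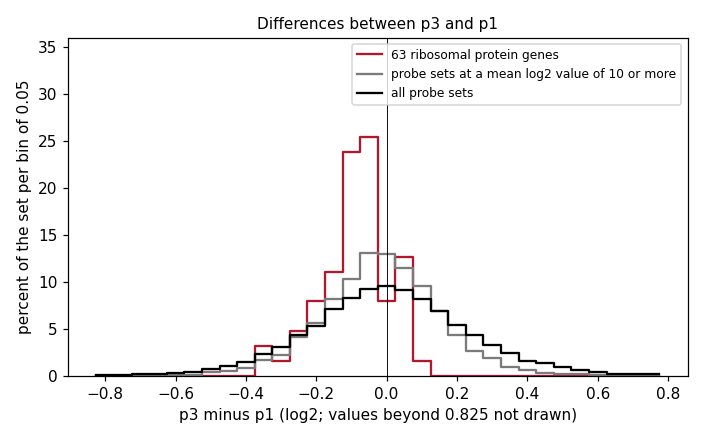
Lines give the percent of each set (y axis) per bin of the difference p3 minus p1 (log2, x axis) for the 63 ribosomal protein genes, the 5311 probe sets with a mean of 10 or more and all 22206 probe sets. The ribosomal protein genes are centred at -0.09 and end at -0.35 and 0.11.

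The shift was carried unevenly by the p3 mice. The median difference of the 63 genes from the mean of the p3 and p1 mice was 0.02, -0.03 and -0.11 in p3 mice 2, 6 and 11, against 0.01, 0.05 and 0.05 in p1 mice 7, 19 and 20. Over all probe sets at 10 or more it was 0.007, 0.02 and -0.04 in the same p3 mice, against 0.005, -0.003 and 0.02 in the p1 mice. Mouse 11 thus stood lowest on both, and was the lowest of the 6 mice for 27 of the 63 genes and the highest for 1, Rps16. Mouse 2 was the lowest for 6 genes and the highest for 10, against 5 and 15 in p1 mouse 7. Without mouse 11, the mean was lower in p3 for 39 of 63 genes, and the median difference was -0.05. Mouse 11 was also the p3 mouse with choroid plexus and thalamus markers, and the part of these in its ribosomal protein values was not tested. In p1 mouse 19, with choroid plexus markers as high, 18 of the 63 genes were below the mean, against 54 in mouse 11. Without both of these mice, 40 of 63 genes had the lower mean in p3, and the median was -0.05.

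**Figure D4:**
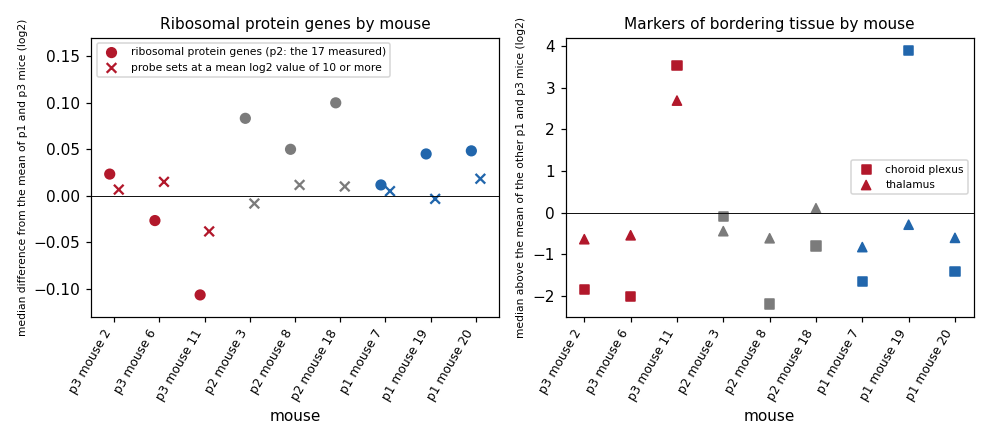
Left, each mouse's median difference from the mean of the p3 and p1 mice (log2, y axis) over the ribosomal protein genes (circles; 63 in p3 and p1, 17 in p2) and over probe sets at 10 or more (crosses). Right, the median of choroid plexus (squares) and thalamus markers (triangles) above the mean of the other p3 and p1 mice; mouse 11 of p3 is low on the left at -0.11 and high on the right at 3.53 and 2.69.

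Of the 63 genes, 5 had no overlap between p3 and p1 and all 5 were lower in p3 (7.94%, against 5.21% of all probe sets and 6.14% of those at 10 or more). The share is near that of the array, and with 3 mice against 3 an exact permutation test, two-sided, cannot go below p = 0.1, which each of the 5 reached. Rps13, Rps20 and the p2 comparisons of single genes below were named after their values were seen, and the others by their role or level.

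Rpl11 binds the 5S ribosomal RNA together with Rpl5 in the large subunit, and free Rpl11 and Rpl5 hold back the ubiquitin ligase Mdm2. Rpl11 was at 13.50, 13.34 and 13.39 in p3 mice 2, 6 and 11, at 13.62, 13.60 and 13.78 in p2 mice 3, 8 and 18, and at 13.62, 13.55 and 13.82 in p1 mice 7, 19 and 20. All 3 p3 mice were below all mice of the other groups, by at least the 0.05 between p3 mouse 2 and p1 mouse 19. The difference p3 minus p1 was -0.25 (SE 0.13, 95% interval -0.55 to 0.05, limma adjusted p = 0.873), a fold of 0.839. Its partner Rpl5 was at 13.64, 13.59 and 13.61 in p3, at 13.88, 13.83 and 13.77 in p2, and at 13.61, 13.86 and 13.72 in p1. The p3 mice lay within 0.05 of each other and overlapped p1 through mouse 7 alone.

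The small subunit gave the other 4 genes without overlap. Rps6 was at 15.98, 15.97 and 16.00 in the p3 mice, at 15.98, 16.08 and 16.14 in p2, and at 16.20, 16.08 and 16.02 in p1, with a difference p3 minus p1 of -0.12 (SE 0.12). Rps23 was at 17.38, 17.38 and 17.35 in the p3 mice, against 17.39, 17.42 and 17.42 in the p1 mice, a difference of only -0.04 (SE 0.13). In both genes the groups parted by 0.02 or less between the nearest mice. Rps13, which binds the central domain of the small subunit's RNA, was at 9.91, 9.94 and 10.02 in the p3 mice, against 10.29, 10.09 and 10.17 in the p1 mice, with a difference of -0.23 (SE 0.14). Rps20, of the head of the small subunit, was at 10.91, 10.70 and 10.87 in the p3 mice, at 11.29, 10.87 and 11.37 in p2, and at 10.95, 10.97 and 11.09 in p1. Its nearest p3 and p1 mice were 10.91 and 10.95, and the difference was -0.18 (SE 0.16).

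The other 6 genes with a difference over 0.2 in size had groups that overlapped, among them the paralogs Rps27l, Rps4l and Rpl10l. In Rps4l the groups only met, with p3 mouse 6 and p1 mouse 20 both at 8.58. Rps9, whose protein helps keep decoding accurate, was at 10.15, 9.91 and 10.10 in the p3 mice, against 10.61, 10.06 and 10.54 in the p1 mice. Its difference was the largest of the 63 in size, at -0.35 (SE 0.18, 95% interval -0.77 to 0.07, limma adjusted p = 0.873), and p1 mouse 19 lay below 2 of the p3 mice. Without that mouse the difference was -0.52 and passed an unadjusted p under 0.05 in limma (adjusted p = 0.752). Rpl8, near the site where the large subunit joins amino acids, was at 13.06, 13.21 and 13.34 in the p3 mice, against 13.50, 13.48 and 13.30 in the p1 mice (it and Rps16 were named after their values were seen). Rps16 was at 10.79, 10.70 and 11.26 in the p3 mice, against 11.23, 11.12 and 11.07 in the p1 mice, so that mouse 11 was above every p1 mouse and the other p3 mice below them. Without mouse 11, its difference was -0.40 in place of -0.22 and passed an unadjusted p under 0.05 in limma (adjusted p = 0.923).

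On the higher side, 11 genes had the larger mean in p3, and Rps25 led them at 0.11 (SE 0.21, 95% interval -0.37 to 0.59). The others were Rps28, Rpl28, Rpl21, Rpl32, Rpl31, Rps19, Rps29, Rpl41, Rpl32l and Rps21, from 0.07 down to 0.02. Rpl21 was at 16.89, 16.85 and 16.74 in p3, at 16.77, 16.91 and 16.90 in p2, and at 16.75, 16.82 and 16.75 in p1, and these 9 values share 1 range. All 11 had groups that overlapped.

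The stalk of the large subunit, which recruits the elongation factors, is read here from Rplp0 and Rplp1. Rplp0, the base of the stalk and a common reference gene in quantitative PCR, was at 10.39, 10.23 and 10.39 in p3, at 10.38, 10.39 and 10.30 in p2, and at 10.47, 10.34 and 10.50 in p1. Rplp1 was at 15.25, 14.99 and 15.06 in the p3 mice, against 15.12, 15.11 and 15.35 in the p1 mice. Their differences, p3 minus p1, were -0.10 (SE 0.13) and -0.09 (SE 0.15), beside the median of -0.09 over all 63. Rpsa, a small subunit protein also known as the laminin receptor, was at 11.58, 11.51 and 11.18 in p3, against 11.49, 11.47 and 11.39 in p1, with mouse 11 the lowest of the 6.

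Paralogs are genes of the same origin as a ribosomal protein gene, and several are known from single tissues. Rps27l was at 6.67, 7.11 and 7.42 in the p3 mice, against 7.66, 7.31 and 7.27 in the p1 mice, a difference of -0.35 (SE 0.22, 95% interval -0.85 to 0.15), and was -0.52 without mouse 11, past an unadjusted p under 0.05 in limma (adjusted p = 0.923). Rps4l was at 8.44, 8.58 and 8.10 in the p3 mice, against 8.81, 8.61 and 8.58 in the p1 mice (difference -0.29, SE 0.17). Its X-linked relative Rps4x was at 10.40, 10.43 and 10.01 in p3, against 10.29, 10.65 and 10.21 in p1 (difference -0.10, SE 0.19). In both Rps4l and Rps4x mouse 11 was the lowest of the 6 mice. Rpl3l was at 3.09, 3.05 and 3.04 in the p3 mice, against 2.98, 3.14 and 3.26 in the p1 mice, while Rpl3, a core protein of the peptidyl transferase region, was at 15.54, 15.64 and 15.52 in p3, against 15.79, 15.75 and 15.52 in p1. Differences of these pairs were alike in sign, but 52 of all 63 genes were lower in p3, so a shared sign does not single out a pair. They were -0.07 for Rpl3l and -0.12 for Rpl3, and -0.16 for Rpl7l1 and -0.14 for Rpl7. The rest were -0.03 for Rpl22l1 and -0.09 for Rpl22, and -0.03 for both Rpl39l and Rpl39. Rpl10l was at 5.67, 5.33 and 5.40 in the p3 mice, against 5.41, 5.90 and 5.79 in the p1 mice, and Rpl39l at 3.89, 4.24 and 4.13, against 3.98, 3.92 and 4.45. No paralog separated the groups.

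The second comparison, p3 against p2, set adult mice with decline against adult mice without it and could be made for the 17 genes with measured p2 values. Again 0 of 17 passed the threshold, which 1.54% of 6291 probe sets passed. In limma, 0 of the 17 were at an unadjusted p under 0.05, against 5.33%, and no probe set had an adjusted p under 0.05. Of the 1609 probe sets at 10 or more among the 6291, 0.311% passed the threshold and 2.30% were at an unadjusted p under 0.05. The one-way model without moderation put 4 of the 17 below an unadjusted p of 0.05 (Rps20, Rpl11, Rpl35 and Rpl5), and a t-test of the 2 groups put 3. The mean was lower in p3 for 16 of 17 genes (94.1%, against 48.1% of the 6291), the exception being Rpl31 at 0.01. The median difference, p3 minus p2, was -0.12 over the 17 genes and 0.01 over the 6291 probe sets, with a range of -0.35 to 0.01. For 16 of 17 genes the 95% interval lay within a fold of 1.5.

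Most markers of the principal neurons of the hippocampus also had the lower mean in p3. Of 8 dentate granule markers, 4 have measured p2 values, and the mean of all 4 was lower in p3 than in p2 (median difference -0.47). Over all 8 markers, the median relative to the other p3 and p1 mice was -0.13, 0.08 and -0.23 in p3 mice 2, 6 and 11, against 0.71, -0.003 and -0.09 in p1 mice 7, 19 and 20, and mouse 7 stood apart. Over the 4 with p2 values, the median relative to the p3 and p1 mice was 1.07, 0.20 and -0.10 in p2 mice 3, 8 and 18, and mouse 3 stood apart. The mean was lower in p3 than in p1 for 7 of the 8 (median -0.24), and higher in p2 than in p1 for 4 of 4 (median 0.21), and their summed level was 13.59 to 13.89 in p3, against 13.66 to 14.39 in p1. Of the pyramidal markers, 3 of 4 were lower in p3 than in p2 (median -0.28) and 6 of 8 lower in p3 than in p1 (median -0.16), with summed levels of 14.96 to 15.31 in p3, against 15.16 to 15.63 in p1. None of the dentate granule or pyramidal markers passed an unadjusted p under 0.05 in limma or was listed at 0. Other lists went differently. Of 7 general neuron markers, the 3 with measured p2 values all had the higher mean in p3 than in p2 (median 0.06). Against p1, 3 were higher in p3 and 4 lower (median -0.10). Of 9 oligodendrocyte markers, the 4 with p2 values were all higher in p3 than in p2 (median 0.205). Against p1, 3 were higher in p3 and 6 lower (median -0.25). Without p2 mouse 3, 16 of 17 ribosomal protein genes again had the lower mean in p3 than in p2 (median -0.12), and without p1 mouse 7, 52 of 63 had the lower mean in p3 than in p1 (median -0.09).

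Of the 17 genes, 4 had no overlap between p3 and p2, all lower in p3 (23.5%, against 5.34% of the 6291 probe sets): Rpl11, Rpl5, Rpl35 and Rpl9. Each had the smallest two-sided p that an exact permutation test allows here, 0.1. The differences p3 minus p2 were -0.26 for Rpl11 (SE 0.13), -0.21 for Rpl5 (SE 0.13), -0.24 for Rpl35 (SE 0.13) and -0.14 for Rpl9 (SE 0.13). Rpl35, at the end of the exit tunnel, was at 12.61, 12.46 and 12.31 in p3, at 12.62, 12.66 and 12.82 in p2, and at 12.48, 12.53 and 12.54 in p1. The p3 mouse nearest to p2 was 0.01 below it, and p1 lay within the p3 range. Rpl9 was at 13.60, 13.67 and 13.67 in p3, at 13.81, 13.73 and 13.81 in p2, and at 13.67, 13.60 and 13.87 in p1.

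The largest of the 17 differences belonged to Rps20, at -0.35 (SE 0.16, 95% interval -0.70 to 0.002, limma adjusted p = 0.853), although p2 mouse 8 lay at the level of p3 mouse 11. Without that p2 mouse it was -0.50 and passed an unadjusted p under 0.05 in limma (adjusted p = 0.882). Rpl22l1, a paralog that in mouse can stand in for Rpl22, was at 10.21, 10.02 and 9.86 in p3, at 10.28, 10.33 and 10.11 in p2, and at 10.06, 9.96 and 10.17 in p1. Rpl22 itself was at 12.60, 12.75 and 12.70 in p3, at 12.84, 12.66 and 12.87 in p2, and at 12.98, 12.74 and 12.61 in p1. Both had overlapping groups, with differences p3 minus p2 of -0.21 (SE 0.14) and -0.11 (SE 0.14). Rpl7 was at 13.40, 13.35 and 13.33 in p3, at 13.70, 13.40 and 13.42 in p2, and at 13.33, 13.61 and 13.57 in p1.

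The third comparison, p2 against p1, set adult against young mice of normal cognition and shares its mice with the other 2 comparisons. Of the 17 genes, 0 passed the threshold (1.29% of 6291 probe sets did). In limma, 0 were at an unadjusted p under 0.05, against 4.26%, and the smallest adjusted p was 0.999. Of the 1609 probe sets at 10 or more, 0.373% passed the threshold and 1.99% were at an unadjusted p under 0.05. The one-way model put 0 at an unadjusted p under 0.05, and a t-test of the 2 groups put 1, Rpl35. The mean was lower in p2 for 3 genes, Rplp0, Rpl37a and Rps6, against 51.0% of the 6291 probe sets, and higher for 14 (82.4%, against 48.1%). The median difference, p2 minus p1, was 0.07, against -0.007 over the 6291, and the range was -0.08 to 0.18. The highest were Rpl35 at 0.18 (SE 0.13), Rpl22l1 at 0.18 (SE 0.14) and Rps20 at 0.17 (SE 0.16). Groups did not overlap for 1 of 17 genes on the higher side, Rpl35 (5.88%, against 4.40% of the 6291), and for 0 on the lower side, against 4.31%. The first share is near that of the array. The median of the 17 genes relative to the mean of p3 and p1 was 0.003, -0.03 and -0.06 in p3 mice 2, 6 and 11, 0.08, 0.05 and 0.10 in p2 mice 3, 8 and 18, and -0.008, 0.02 and 0.05 in p1 mice 7, 19 and 20. No p2 mouse had its median as low as any p3 mouse, and p2 mouse 8 and p1 mouse 20 were both at 0.05.

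**Figure D5:**
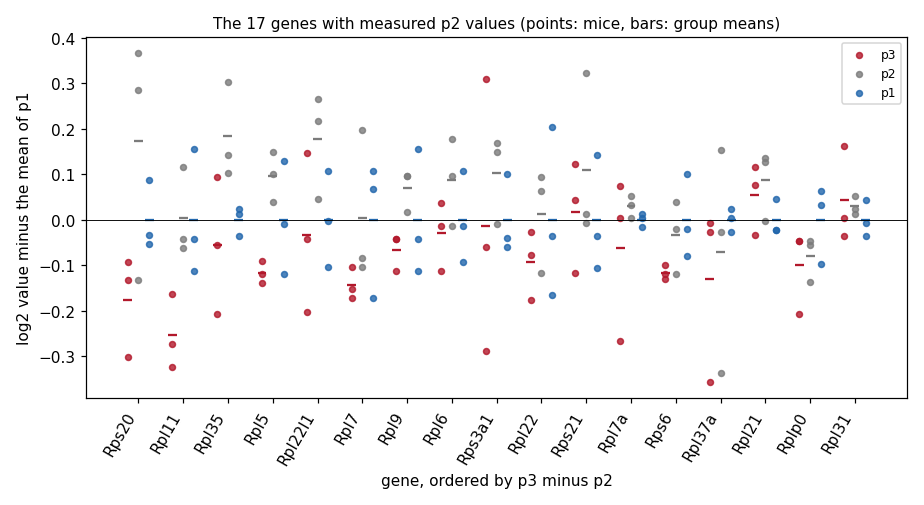
Points give the log2 value of each mouse minus the mean of p1 (y axis) for the 17 genes with measured p2 values (x axis, ordered by p3 minus p2), in p3, p2 and p1, with bars for group means. The p3 bar is below the p2 bar for 16 of 17 genes. The p3 and p2 mice overlap in 13, in Rpl7 only by a tie at 13.40.

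Promoter sequences are shown for the genes whose groups did not overlap in any comparison, since many ribosomal protein promoters hold an ETS motif, bound by factors such as GABP, and start at a C within a pyrimidine run. Of these 8 genes, 7 had an entry in the RefSeq promoter table of build GRCm38.p6. Each run below holds 70 bases before the start site and 30 from it on, 5′ to 3′ on the gene's strand, with capitals for the letters CGGAAG or their reverse complement CTTCCG. They lie at chr4:136053364-136053463 (minus strand) for Rpl11, chr4:86857338-86857437 (minus) for Rps6, chr7:116334161-116334260 (minus) for Rps13, chr13:90923052-90923151 (plus) for Rps23, chr5:107900458-107900557 (plus) for Rpl5, chr5:65391402-65391501 (minus) for Rpl9 and chr2:39005102-39005201 (minus) for Rpl35.
Rpl11: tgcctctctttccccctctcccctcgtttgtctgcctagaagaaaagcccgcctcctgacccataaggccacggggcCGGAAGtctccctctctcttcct
Rps6: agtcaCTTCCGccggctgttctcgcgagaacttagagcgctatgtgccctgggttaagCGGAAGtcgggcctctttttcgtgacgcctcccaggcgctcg
Rps13: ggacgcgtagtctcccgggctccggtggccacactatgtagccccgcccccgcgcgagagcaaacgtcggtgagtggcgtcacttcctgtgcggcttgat
Rps23: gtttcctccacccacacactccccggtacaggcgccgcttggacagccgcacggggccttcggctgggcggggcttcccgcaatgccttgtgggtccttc
Rpl5: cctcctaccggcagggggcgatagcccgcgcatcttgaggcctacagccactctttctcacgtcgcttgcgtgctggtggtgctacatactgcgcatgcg
Rpl9: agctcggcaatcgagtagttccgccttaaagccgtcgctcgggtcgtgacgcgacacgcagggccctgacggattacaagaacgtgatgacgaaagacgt
Rpl35: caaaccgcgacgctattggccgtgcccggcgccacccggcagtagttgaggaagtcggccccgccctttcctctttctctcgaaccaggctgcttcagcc

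Rps6 holds 2 of the marked motifs in this window and Rpl11 holds 1, placed just after its start site, while the other 5 show none here. From the annotated start on, Rpl35 opens with 11 C or T in a row and Rps6 with 9. Rps13 opens with 1, and Rpl11, Rpl5, Rpl9 and Rps23 with 0. The start used for Rpl5 lies 20 bases inside the edge of its RefSeq gene. The motif was searched on both strands of the whole promoter entries (300 bases), of which 50 of the 63 genes had one. CGGAAG was found in 31 of 50 (62%), against 17.2% of 27025 promoters, and AAGATGG, the letters of a YY1 site, in 7 (14%), against 6.48%. TATAAA was found in 6 (12%), against 14.2%. At least 8 C or T in a row, all within 15 bases of the start on either side, were found in 19 of 50 (38%), against 11.9%. These letters were counted as a description of the genes, and no measured value here bears on binding.

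Genes that make or use ribosomes were read from lists beside the ribosomal proteins, for p3 against p1. The ribosomal proteins that the symbol rule leaves out, Rpl36al and Fau, had differences of -0.20 (SE 0.24) and -0.09 (SE 0.17). Of 39 measured ribosome assembly factors, 26 were lower and 13 higher in the mean, with a median of -0.07, and 1 was at an unadjusted p under 0.05. This was Nob1, which trims the precursor of the small subunit's RNA, at 9.87, 10.17 and 9.80 in the p3 mice, against 10.56, 10.34 and 10.32 in the p1 mice (difference -0.46, SE 0.16, limma adjusted p = 0.86). No p3 mouse reached the lowest p1 mouse. Utp3, another assembly factor of the list, went the other way at 0.29 (SE 0.13).

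Of 26 initiation factors, 18 were lower and 8 higher in the mean, with a median of -0.08, and 1 was at an unadjusted p under 0.05. Eif3i, a subunit of the initiation factor that binds the small subunit, was at 8.34, 8.20 and 8.15 in p3, at 8.60, 8.64 and 8.49 in p2, and at 9.01, 8.54 and 8.76 in p1. All p3 mice were below all mice of both other groups. The difference was -0.54 against p1 (SE 0.15, limma adjusted p = 0.86) and -0.35 against p2 (SE 0.15, limma adjusted p = 0.853), under the fold of 1.5 in both. Eif3b, of the same complex, had a difference p3 minus p1 of -0.35 (SE 0.18).

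Elongation factors and other TOP mRNAs gave 8 lower and 4 higher of 12, with a median of -0.08 and 0 at an unadjusted p under 0.05. Eef1g was at 13.59, 13.52 and 13.58 in the p3 mice, against 13.85, 13.72 and 13.85 in the p1 mice (difference -0.24, SE 0.13). Eef1b2, another subunit of the exchange factor for elongation factor 1A, was at -0.18 (SE 0.13). Eef1a1, elongation factor 1A itself and a TOP mRNA, was at 18.85, 18.85 and 18.77 in p3, against 18.85, 18.85 and 18.72 in p1, a difference of 0.02.

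Genes of ribosomal RNA synthesis showed 6 lower and 5 higher of 11 (median -0.007), led by Polr1a, the large subunit of RNA polymerase I, at 0.32 (SE 0.18), and its activator Ubtf at -0.23 (SE 0.14). The mTOR pathway and other regulators of ribosomal protein mRNAs showed 6 lower and 6 higher of 12 (median -0.003), with Mtor at 0.02 (SE 0.15), Larp1 at -0.03 (SE 0.14) Myc at -0.45 (SE 0.36) and Eif4ebp2, a repressor of initiation that mTOR controls, at -0.13 (SE 0.15). Mtor, Larp1 and, above, Eef1a1 were named after their values were seen. In both lists 0 genes were at an unadjusted p under 0.05. Ribosome rescue and recycling showed 5 lower and 2 higher of 7 (median -0.05), with Nemf at 0.32 (SE 0.15) and Abce1, which splits the subunits, at -0.20 (SE 0.16).

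Of the genes downstream of free Rpl5 and Rpl11, Mdm2 was at -0.18 (SE 0.18), Mdm4 at 0.15 (SE 0.14) and Cdkn1a, the p53 target that stops the cell cycle, at -1.02 (SE 0.44). Cdkn1a passed the threshold (limma adjusted p = 0.86), with 7.51, 8.41 and 7.39 in the p3 mice, against 8.15, 8.42 and 9.81 in the p1 mice. The groups overlapped, and p1 mouse 20 alone lay above 9.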

How the data were processed

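The authors hybridised total RNA of 9 hippocampi, 1 per mouse, to Clariom S arrays and normalised them in the Transcriptome Analysis Console (named in the submitters' processing notes, version not given there, and 4.0.3 by the study's methods). They deposited log2 values per probe set. How background was corrected and probes summarised, and on which genome build, is not given in the sources used here. Precision is limited by 3 arrays per group.

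The platform's table gave the gene names, and all 63 genes matched RefSeq by Entrez ID. In p2, 15915 values with more than 2 decimals lay within 5e-10 of a line and were set to missing; 0 columns were left unused. All 22206 probe sets were fitted in limma 3.58.1 (R 4.3.3; lmFit, eBayes; prior degrees of freedom 4.22, residual 6, or 4 without p2) with Benjamini-Hochberg adjustment, so where p2 is missing the fit holds 6 mice. The threshold was that of the methods, a fold of 1.5 and an unadjusted p of 0.05. All p-values rest on the spread between these mice. In limma each gene's own spread is drawn toward a common value over all probe sets (moderation). The median within-group SD was 0.127 for the 63 genes and 0.228 for all probe sets. Single genes were tested by exact permutation. The fit was tested on simulated data. Plots were made in Python 3.11.15 (matplotlib 3.10.9).

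Genes were named by level, spread, paralog pair, role (Rplp0, Rplp1, Rpsa, Rps6, Rpl5, Rpl11) or as the 2 smallest p of each pathway list; others are said to be chosen after their values were seen. Members and lists were chosen with earlier results of these data known. Alternatives were other models, weights, normalisations, filters and thresholds, and each mouse left out.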

Additional observations from a re-analysis of the deposited data

How the results depend on the processing

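Over 22 settings, 0 of the ribosomal protein genes passed the study's threshold in any comparison, and 0 had an adjusted p under 0.05 in limma or the other models (smallest 0.747 for p3 against p1, 0.735 for p3 against p2 and 0.978 for p2 against p1). The count at an unadjusted p under 0.05 was 0 of 63 for p3 against p1. It was 3 in the one-way model without moderation (the array test of the study's methods where p2 was measured). A t-test of the 2 groups gave 2, and trended and robust moderation gave 1. Leaving out p1 mouse 19 and p3 mouse 11 together (chosen after seeing the data) gave 1, and leaving out 1 mouse gave 0 to 2. For p3 against p2 it was 0 of 17, but 4 in the one-way model, 3 in the t-test, 4 with trended and robust moderation, 1 where only the brighter probe sets (those over the median level, or those of 6 or more) were kept, and 0 to 1 with 1 mouse left out. For p2 against p1 it was 1 in the t-test. The one-way and the trended and robust fits use the same values as the main fit and differ only in the moderation. Without moderation the unadjusted p of Rps13 (p3 against p1) went from 0.136 in limma to 0.027. That of Rps9 went from 0.092 to 0.136. Why the counts moved in the other settings was not tested. With 1 mouse left out, the median difference ran from -0.12 to -0.05 for p3 against p1, from -0.16 to -0.11 for p3 against p2 and from 0.04 to 0.08 for p2 against p1. The number of genes with the lower mean ran from 39 to 55 of 63, from 13 to 16 of 17 and from 2 to 5 of 17 in the same order, and was 5 of 17 for p2 against p1 with array weights and without mice 19 and 11. Quantile normalisation gave 50 of 63 and median centring 54 of 63 for p3 against p1. No result changed its sign past a threshold.

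No paired analysis was possible because the mouse numbers in the labels are not shared between groups. Limits: 3 mice per group cannot give an exact p under 0.1. The p2 values cover 17 of 63 genes. The p3 and p2 mice were chosen by rank, as the lowest and the highest, so p3 against p2 compares the ends of the ranking. The p3 group differs from p1 in age as well as in cognition, which cannot be told apart in that comparison. The labels name no batch. The differences of about 0.1 are below the median standard error of 0.148 for 1 gene, p3 against p1. This is the moderated error of limma, in which each gene's spread is drawn toward a common value over all probe sets. The median within-group SD was 0.127 for the 63 genes, against 0.228 for all probe sets. The 0.148 is thus not the spread of these genes alone. The p-values and confidence intervals of limma rest on the same moderated errors.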
